A study of Mus musculus with 6 samples.

Results

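The genes described here are 9 genes of glucose sensing and glucose entry, chosen by name from the 24420 gene symbols of the count table. They are 5 alpha-arrestin genes (*Txnip*, *Arrdc1*, *Arrdc2*, *Arrdc3* and *Arrdc4*), the transcription factor genes *Mlxip* and *Mlx*, and the glucose transporter genes *Slc2a1* and *Slc2a3*. They were chosen with fold changes of the genotype comparison already known, so their differences between genotypes are given as a description, and no count over the 9 genes is evidence on its own. The sequenced RNA came from YFP+ Treg cells of C57BL/6 female mice, sorted from lymph node cells after enrichment on CD4 beads. The 3 OGT-sufficient samples carried Foxp3YFP-Cre/wt Ogtwt/fl and the 3 OGT-deficient samples carried Foxp3YFP-Cre/wt Ogtfl/fl, and both groups share the Cre. OGT is the enzyme that attaches O-GlcNAc to proteins. The Cre, fused to YFP, is expressed from the *Foxp3* locus on the X chromosome, so each female also holds Treg cells without Cre, which the sort on YFP leaves out. The labels give no treatment and no age (the study's methods give a range of weeks for mice in general, none for these samples by name), and they do not say whether each sample is 1 mouse, so the p-values below measure the spread between these samples.

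Alpha-arrestins are adaptors that bring ubiquitin ligases to membrane proteins and so control their removal from the cell surface. TXNIP and ARRDC4 are known to lower glucose uptake by acting on glucose transporters, and TXNIP also binds thioredoxin. Transcription of both genes is driven by MondoA, the product of *Mlxip*, which pairs with MLX and moves to the nucleus when glucose phosphates accumulate. GLUT1 (*Slc2a1*) and GLUT3 (*Slc2a3*) are the main glucose carriers of T cells, and part of the glucose they bring in becomes UDP-GlcNAc, the donor that OGT uses.

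The promoters of *Txnip* and *Arrdc4* are shown because both genes are textbook targets of MondoA and MLX and yet differed in opposite directions between the genotypes. The sequences run 5′ to 3′ along the gene from 250 bases before to 50 bases after the RefSeq start, on GRCm38.p6, and capitals mark matches to 3 motifs searched on both strands. The motifs were a pair of E-box-like elements 5 bases apart (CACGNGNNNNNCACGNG), the E-box CACGTG and the CCAAT box (CCAAT, or ATTGG on the other strand).
Txnip promoter, chr3:96557707-96558006, plus strand: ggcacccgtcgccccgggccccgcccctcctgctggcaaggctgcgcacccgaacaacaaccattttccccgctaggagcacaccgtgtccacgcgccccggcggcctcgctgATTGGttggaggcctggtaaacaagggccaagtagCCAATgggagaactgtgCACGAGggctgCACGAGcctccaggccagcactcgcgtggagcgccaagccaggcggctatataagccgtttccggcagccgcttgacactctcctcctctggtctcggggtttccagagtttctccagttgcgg
Arrdc4 promoter, chr7:68749189-68749488, minus strand: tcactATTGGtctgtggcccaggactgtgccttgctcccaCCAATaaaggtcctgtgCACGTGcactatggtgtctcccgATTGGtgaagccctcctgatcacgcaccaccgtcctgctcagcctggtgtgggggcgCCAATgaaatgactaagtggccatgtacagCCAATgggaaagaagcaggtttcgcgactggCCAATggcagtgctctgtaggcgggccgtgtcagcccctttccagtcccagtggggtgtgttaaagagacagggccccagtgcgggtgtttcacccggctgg

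The *Txnip* window holds the paired elements at chr3:96557872-96557888, starting 85 bases before the gene's start, with 2 CCAAT boxes upstream of them. This pairing was present in 16 of 32851 RefSeq promoters of this length (0.0487%). The *Arrdc4* window holds no pair of this form, a single CACGTG that starts 193 bases before the gene's start, and 6 CCAAT boxes. Pairs of other forms, or outside these windows, were not searched. A CACGTG was present in 7.15% of the promoters, a CCAAT box in 37.4%, and 6 or more CCAAT boxes in 26 of them (0.0791%). Among the other genes, *Mlx* held a CACGTG that starts 40 bases before its start. CCAAT boxes were found in the windows of *Arrdc2* (3), *Mlx* and *Mlxip* (2 each), *Slc2a1* (1) and *Arrdc3* (1 in each of 2 of its 3 annotated windows), and *Arrdc1* held none of the motifs. RefSeq windows matched 8 of the 9 genes, all but *Slc2a3*. A match is a description of letters, and binding was not measured in these samples.

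The samples had between 3375454 and 4103552 counts, of which 24.2% to 37.1% fell on the ribosomal RNA gene *Rn45s*. Counts of *Ogt*, which the Cre targets, were 562, 632 and 957 in the OGT-sufficient and 327, 266 and 368 in the OGT-deficient samples. Its log2 fold change was -1.21 (SE 0.21, adjusted p = 0.191 by edgeR's quasi-likelihood test). *Foxp3* had between 719 and 1115 counts in the OGT-sufficient and between 987 and 1116 in the OGT-deficient samples, and the 10 Treg markers checked were all detected. Summed, these Treg markers ranged from 2426 to 3557 CPM in the OGT-sufficient and from 3323 to 3773 CPM in the OGT-deficient samples. OGT-sufficient replicate 3 stood apart, with counts on 18346 genes against 14412 to 15197 in the others. Summed over 10 genes each, macrophage markers ranged from 1730 to 3752 CPM in the OGT-sufficient and from 1198 to 5410 CPM in the OGT-deficient samples, and B-cell markers from 113 to 424 CPM and from 105 to 184 CPM. Neutrophil markers ranged from 31.0 to 344 CPM and from 19.6 to 28.6 CPM and did not overlap between the groups, erythroid markers from 249 to 930 CPM and from 252 to 531 CPM, and CD8 and NK markers from 77.1 to 117 CPM and from 80.0 to 125 CPM. OGT-sufficient replicate 3, which had the lowest Treg sum, held the highest B-cell, erythroid and neutrophil sums. The macrophage sum exceeded the Treg sum in OGT-sufficient replicate 1 and OGT-deficient replicates 2 and 3, and lay below it in the other samples. *Hba-a1* was the only one of the 50 markers of these other cell types without a count, and the part of such cells in the values below was not tested. In bulk RNA a lower level may reflect fewer cells of a type or less RNA per cell, which cannot be told apart.

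CPM below is the count scaled to the TMM-adjusted library size, and comparisons of levels between genes use CPM per kb of annotated exon. All 9 genes passed the low-count filter and were tested among 10949 genes. None of the 9 passed an FDR of 0.1 with edgeR's quasi-likelihood test, which 0.0274% of all tested genes did. By other tools 0 of the 9 passed with DESeq2, against 38 of all 10949 tested genes, and 2 with edgeR's exact test, against 80 of 10949. With edgeR's quasi-likelihood test 3 of the 9 had an unadjusted p under 0.01. These were *Txnip* (higher in the OGT-deficient samples) and *Arrdc4* and *Slc2a3* (lower). Of all tested genes 1.84% had such a p, 0.886% higher and 0.959% lower. No further gene of the 9 had an unadjusted p under 0.05, as 7.1% of all tested genes had. The genotypes were separate in 4 of the 9, those 3 and *Slc2a1*, against 13.2% of all tested genes (5.72% higher, 7.48% lower). The 9 genes had a median log2 fold change of 0.039, against -0.017 for all tested genes.

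**Figure D1:**
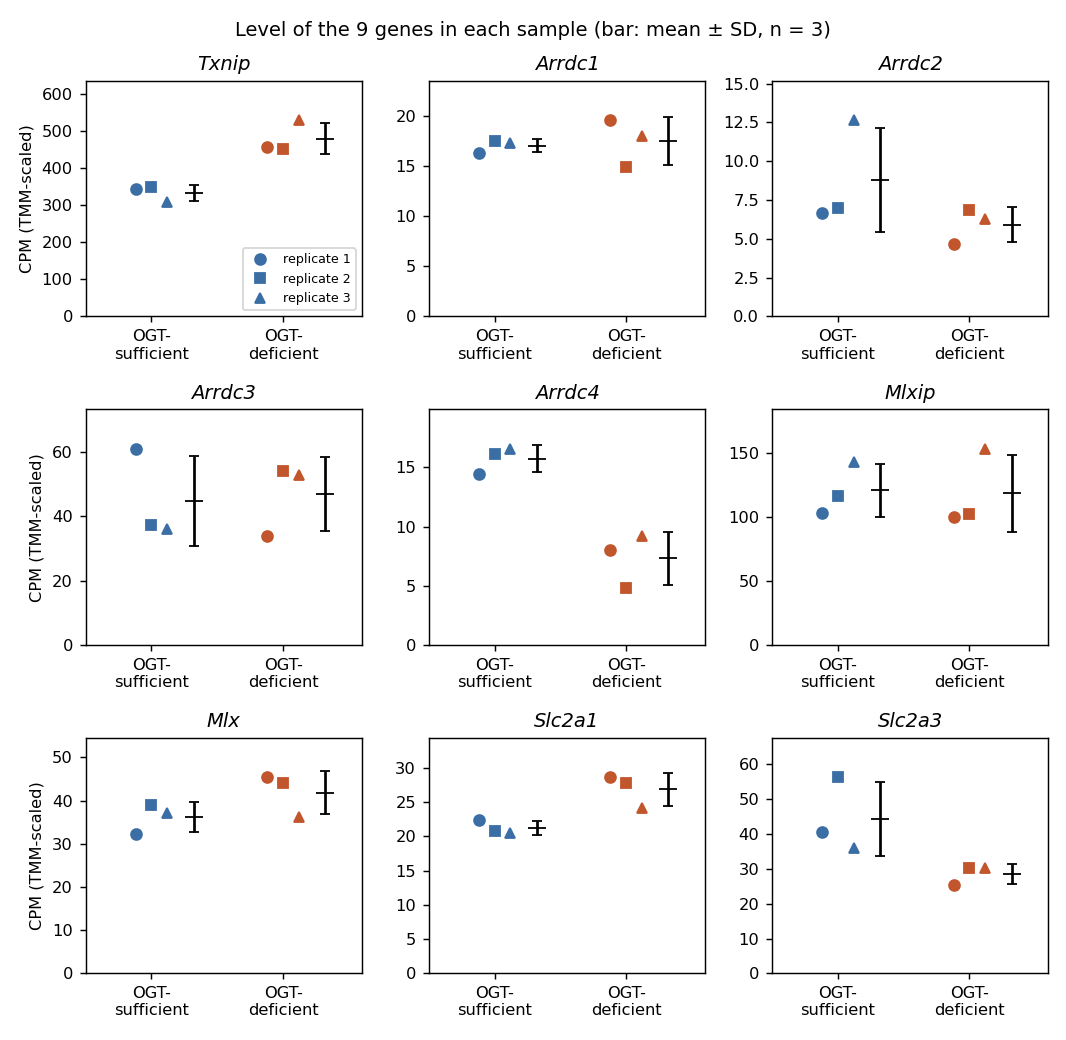
Level in CPM (TMM-scaled, vertical axis from 0) of each of the 9 genes in the 3 OGT-sufficient (blue) and 3 OGT-deficient (orange) samples, with a marker shape per replicate number and bars for mean ± SD. The groups are separate for Txnip, Arrdc4, Slc2a1 and Slc2a3, and overlap for the other 5 genes.

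*Txnip* (ENSMUSG00000038393, chr3:96557957-96561883 on the plus strand) was by far the most abundant of the genes. In order of replicate, the OGT-sufficient samples held 1284, 1293 and 1175 counts, and the OGT-deficient ones 1775, 1785 and 2017 counts. Every OGT-deficient sample lay above every OGT-sufficient sample, with a gap between 348 and 452 CPM. The OGT-sufficient samples averaged 334 ± 21.2 CPM and the OGT-deficient samples 479 ± 42.7 CPM (SD, n = 3 each), which is 1.44-fold higher. The log2 fold change was 0.52 (SE 0.12, 95% interval 0.26 to 0.79). With edgeR's quasi-likelihood test the unadjusted p was 0.00157 and the adjusted p 0.306, and *Txnip* ranked 55 of 10949 genes by p. The coefficient of variation between replicates was 6.34% in the OGT-sufficient and 8.92% in the OGT-deficient samples, where counting alone gives 2.83% and 2.32%. The exons of *Txnip* overlap those of *Gm15441*, an antisense gene, and the strand setting of the counting is not given in the sources used here, so reads of the pair may have been mixed. *Gm15441* had between 4 and 20 counts per sample, far fewer than *Txnip*.

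*Arrdc4* (ENSMUSG00000042659, chr7:68736995-68749241 on the minus strand) went the other way. Its counts were 54, 60 and 63 in the OGT-sufficient and 31, 19 and 35 in the OGT-deficient samples. The lowest OGT-sufficient sample, at 14.4 CPM, stood above the highest OGT-deficient sample, at 9.17 CPM. The level was 15.7 ± 1.14 CPM (SD, n = 3) against 7.33 ± 2.26 CPM (SD, n = 3), or 2.15-fold lower in the OGT-deficient group. Its log2 fold change was -1.10 (SE 0.26, 95% interval -1.68 to -0.52), the largest in size among the 9 genes, with an unadjusted p of 0.00200 and an adjusted p of 0.342 by edgeR's quasi-likelihood test. At these counts sampling alone gives a coefficient of variation of about 13.0% in the OGT-sufficient and 18.8% in the OGT-deficient samples. The observed values were 7.27% and 30.8%, the first below and the second above that of sampling. A coefficient of variation from n = 3 is itself imprecise, so neither was tested against sampling. With OGT-deficient replicate 2 left out the log2 fold change was -0.84, and with OGT-deficient replicate 3 left out it was -1.26.

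*Txnip* and *Arrdc4* were also compared within each sample, a ratio that does not depend on library scaling. For each count of *Arrdc4*, the OGT-sufficient samples held 23.8, 21.6 and 18.7 counts of *Txnip*, and the OGT-deficient ones held 57.3, 93.9 and 57.6. The log2 ratio was 4.41 ± 0.18 (SD, n = 3) in the OGT-sufficient and 6.08 ± 0.41 (SD, n = 3) in the OGT-deficient samples, a difference of 1.67. This ratio was chosen after the values of both genes were seen. The groups had to be separate, since both genes were already separate in opposite directions, and the ratio restates those differences. An exact two-sided permutation test therefore had to give p = 0.1, the smallest that 3 samples against 3 can give.

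The remaining alpha-arrestins overlapped between the genotypes. *Arrdc1*, whose product drives the budding of small vesicles at the plasma membrane, averaged 17.1 ± 0.663 CPM in the OGT-sufficient group and 17.5 ± 2.39 CPM in the OGT-deficient group (SD, n = 3 each). Its log2 fold change of 0.039 had a 95% interval from -0.36 to 0.44. *Arrdc3*, an adaptor in the trafficking and degradation of beta-adrenergic receptors, had 228, 138 and 137 counts in the OGT-sufficient and 131, 214 and 201 in the OGT-deficient samples. One sample of each group thus lay with the samples of the other group, and the log2 fold change was 0.068 (SE 0.25, 95% interval -0.49 to 0.63). *Arrdc2*, the family member with the fewest counts, had 25, 26 and 48 in the OGT-sufficient and 18, 27 and 24 in the OGT-deficient samples. Its log2 fold change of -0.57 (SE 0.32, adjusted p = 0.754 by edgeR's quasi-likelihood test) leaned on OGT-sufficient replicate 3, the library that stood apart, without which it was -0.20.

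Over the 5 alpha-arrestins together, the levels summed to 420 ± 25.3 CPM in the OGT-sufficient group and 557 ± 50.2 CPM in the OGT-deficient group (SD, n = 3 each). The groups were separate, with an exact two-sided permutation p = 0.1, again the smallest possible. Most of this sum was *Txnip*, whose separation was already known, so the test adds little to it. The share of this sum that came from *Txnip* was 77.7%, 81.7% and 78.9% in the OGT-sufficient and 87.4%, 84.8% and 86.0% in the OGT-deficient samples. Without *Txnip*, the 4 *Arrdc* genes summed to 86.3 ± 10.7 CPM and 77.7 ± 10.4 CPM (SD, n = 3 each), and these groups overlapped.

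The transcription factor genes showed no separation between genotypes. *Mlxip*, which encodes MondoA, had 385, 430 and 543 counts in the OGT-sufficient and 388, 403 and 584 in the OGT-deficient samples. In each group replicate 3 was the highest, and the log2 fold change was -0.027 (SE 0.19, 95% interval -0.46 to 0.41). *Mlx*, which encodes its partner, had 121, 145 and 141 counts in the OGT-sufficient and 176, 174 and 138 in the OGT-deficient samples. OGT-deficient replicates 1 and 2 lay above every OGT-sufficient sample and replicate 3 lay among them, for a log2 fold change of 0.21 (SE 0.15, 95% interval -0.12 to 0.54, adjusted p = 0.785 by edgeR's quasi-likelihood test). The exons of *Mlx* overlap those of *Psmc3ip* on the other strand, which had a log2 fold change of -0.29 (SE 0.30). Per kb of exon the log2 ratio of *Mlxip* to *Mlx* was -0.33 ± 0.20 (SD, n = 3) in the OGT-sufficient and -0.58 ± 0.52 (SD, n = 3) in the OGT-deficient samples. These groups overlapped (exact two-sided permutation p = 0.5).

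**Figure D2:**
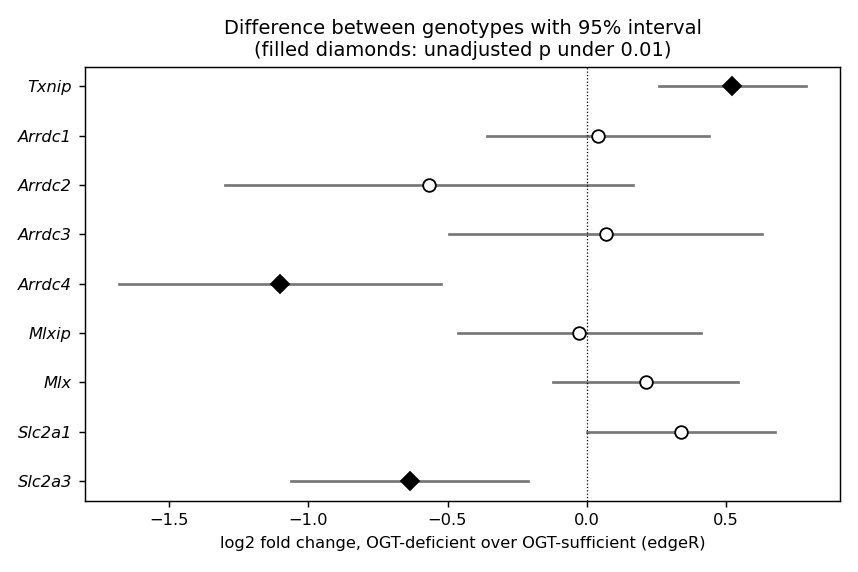
Log2 fold change of each gene (horizontal axis, OGT-deficient over OGT-sufficient, edgeR) with its 95% interval, where filled diamonds mark an unadjusted p under 0.01. The intervals of Txnip, Arrdc4 and Slc2a3 exclude 0, that of Slc2a1 reaches from -0.00085 to 0.68, and those of the other 5 genes span 0.

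The glucose transporter genes also differed in opposite directions. *Slc2a1* (GLUT1) had 84, 77 and 78 counts in the OGT-sufficient and 111, 110 and 92 in the OGT-deficient samples. The genotypes did not overlap, at 26.9 ± 2.41 CPM against 21.2 ± 1.05 CPM (SD, n = 3 each), although the nearest samples of the groups, at 22.4 and 24.1 CPM, were close. The log2 fold change was 0.34 (SE 0.15, 95% interval -0.00085 to 0.68), with an unadjusted p of 0.0505 and an adjusted p of 0.699 by edgeR's quasi-likelihood test. *Slc2a3* (GLUT3) had 152, 209 and 137 counts in the OGT-sufficient and 98, 119 and 115 in the OGT-deficient samples. Here every OGT-deficient sample was below every OGT-sufficient one, and OGT-sufficient replicate 2 was the highest of the 6. The means were 44.3 ± 10.6 CPM and 28.5 ± 2.80 CPM (SD, n = 3 each), and the log2 fold change was -0.64 (SE 0.19, 95% interval -1.06 to -0.21). With edgeR's quasi-likelihood test the unadjusted p was 0.00812 and the adjusted p 0.517. Without OGT-sufficient replicate 2 the log2 fold change was -0.39 and its unadjusted p was 0.0494.

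The balance of the transporter RNAs was also taken within each sample, with the opposite differences of both genes already known, so their ratio restates those differences. Per kb of exon, the log2 ratio of *Slc2a1* to *Slc2a3* was 0.19, -0.39 and 0.23 in the OGT-sufficient and 1.23, 0.93 and 0.73 in the OGT-deficient samples. The transcripts were thus near parity in the OGT-sufficient samples (mean 0.011 ± 0.35, SD, n = 3). *Slc2a1* exceeded *Slc2a3* in every OGT-deficient sample (0.96 ± 0.25, SD, n = 3). The part of other cell types in these levels was not tested. The difference in this log2 ratio was 0.95, or 1.93-fold. Both genes were already separate in opposite directions, so the groups had to be separate here too. An exact two-sided permutation test therefore had to give p = 0.1, the smallest possible, and it adds nothing to those differences. The summed level of the pair was 12.2 ± 1.43 CPM per kb in the OGT-sufficient and 11.6 ± 0.531 CPM per kb in the OGT-deficient samples (SD, n = 3 each). These groups overlapped (exact two-sided permutation p = 0.7). *Slc2a3* has a long annotated exon length of 7.245 kb against 3.506 kb for *Slc2a1*. The parity and the summed level hold for these lengths only, whereas the difference in log2 ratio between genotypes does not depend on them.

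**Figure D3:**
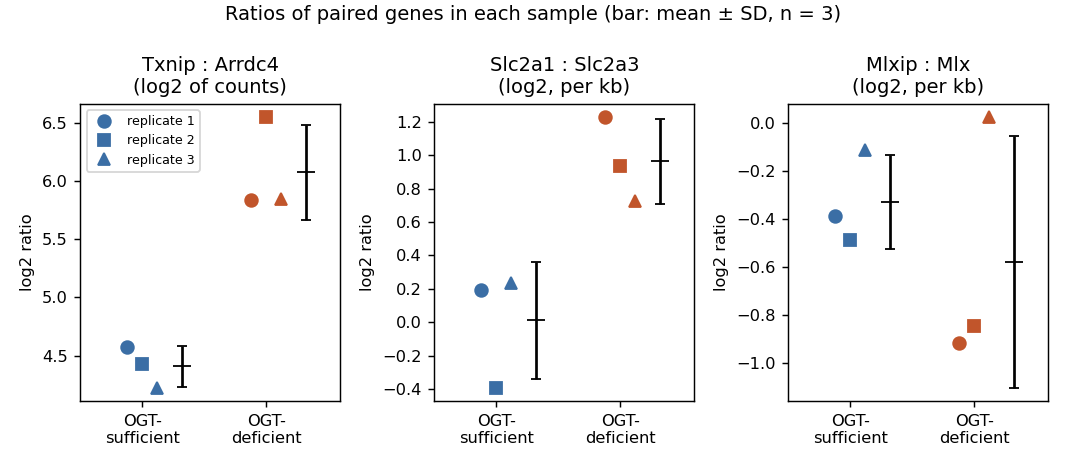
Log2 ratio (vertical axis) of Txnip to Arrdc4 counts, of Slc2a1 to Slc2a3 per kb and of Mlxip to Mlx per kb in each sample, with a marker shape per replicate number and bars for mean ± SD, n = 3. The OGT-deficient samples lie above all OGT-sufficient samples in the first and second panels and overlap them in the third.

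Ordered by CPM per kb in the OGT-sufficient samples, *Txnip* came first at 107 ± 6.78 and *Mlx* second at 18.1 ± 1.73, followed by *Mlxip* at 14.5 ± 2.46 (SD, n = 3 each). *Mlx* and *Mlxip* overlapped over their samples, and both were separate from *Txnip* above and from the next genes below. *Arrdc3* (7.14), *Arrdc1* (6.80), *Slc2a3* (6.12) and *Slc2a1* (6.06) each overlapped with their neighbour in the order. *Arrdc4* (3.89) and *Arrdc2* (2.71) were the lowest and overlapped with each other. In the OGT-deficient samples *Txnip*, at 153 ± 13.7 CPM per kb, *Mlx* and *Mlxip* kept the first 3 places. *Slc2a1* (7.66) was then the fourth, overlapping with *Arrdc3* and *Arrdc1*, and *Slc2a3* (3.93) was the seventh and separate from its neighbours on both sides. *Arrdc4* (1.81) was last and overlapped with *Arrdc2* (1.83).

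The genes around this pathway were taken as 6 lists with 75 genes, of which 58 were tested. None passed an FDR of 0.1 with edgeR's quasi-likelihood test, DESeq2 or edgeR's exact test, 7 of the 58 (12.1%) had an unadjusted p under 0.05, against 7.1% of all tested genes, and 1 of the 58 (1.72%) had an unadjusted p under 0.01, against 1.84% of all tested genes. Their median log2 fold change was 0.094, and the groups did not overlap in 9 of them (15.5%), against 13.2% of all tested genes. In the network of MAX and MLX partners, 12 of 15 genes were tested, with a median of -0.084. *Mxd1*, which encodes a repressor that pairs with MAX, was the gene with a p under 0.01. It had 398, 465 and 427 counts in the OGT-sufficient and 692, 704 and 538 in OGT-deficient samples, and these were separate. Its log2 fold change was 0.53 (SE 0.13), with an adjusted p of 0.385 by edgeR's quasi-likelihood test. The unadjusted p was not under 0.01 with library size only, nor without OGT-sufficient replicate 1 or without OGT-deficient replicate 1 or 2. *Myc*, the activator that competes for the same partner, had a log2 fold change of 0.41 (SE 0.13, unadjusted p = 0.0123). *Mlxipl*, which encodes ChREBP, the other glucose-sensing partner of MLX, had at most 1 count in a sample.

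In the remaining 5 lists no gene had an unadjusted p under 0.01. Of the NEDD4-family ubiquitin ligases, which alpha-arrestins recruit, and other adaptors of these ligases, 9 of 11 were tested with a median of 0.16. *Nedd4* had 110, 89 and 203 counts in the OGT-sufficient and 86, 71 and 52 in the OGT-deficient samples, a log2 fold change of -0.99 (SE 0.31, unadjusted p = 0.0111). OGT-sufficient replicate 3, the library that stood apart, was its highest sample, and without it the log2 fold change was -0.56. *Wwp2* had 0.30 (SE 0.14). Among the other glucose and hexose transporters 4 of 13 were tested, and the 9 others had at most 12 counts in any sample. Of these 4, the sugar efflux carrier gene *Slc50a1* had a log2 fold change of 0.46 (SE 0.20) with separate groups, and *Slc2a8* (GLUT8) had 0.24 (SE 0.43). In the list of the thioredoxin system, of which TXNIP binds thioredoxin itself, all 15 genes were tested with a median of 0.025. *Prdx6*, a peroxiredoxin gene, had -0.41 (SE 0.13, unadjusted p = 0.0128) and *Glrx*, a glutaredoxin gene, had 0.57 (SE 0.21), both with separate groups. Of the hexokinases and other enzymes of glucose phosphates, 9 of 11 were tested with a median of 0.13. *Adpgk*, an ADP-dependent glucokinase gene, had 0.46 (SE 0.15, unadjusted p = 0.0156) and *Hk1*, which encodes a hexokinase, had -0.20 (SE 0.11). Of the other arrestin-fold and retromer genes 9 of 10 were tested with a median of -0.0084, led by *Dscr3* at 0.32 (SE 0.16) and *Vps29* at 0.16 (SE 0.19).

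**Figure D4:**
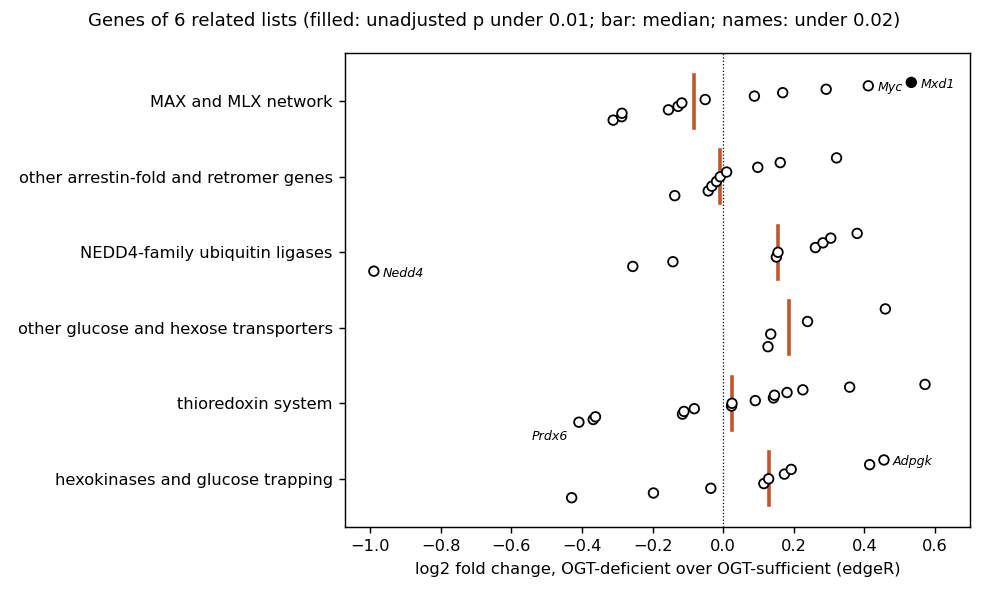
Log2 fold change (horizontal axis, OGT-deficient over OGT-sufficient, edgeR) of each tested gene in the 6 lists, with an orange bar at each list's median and genes with an unadjusted p under 0.02 named. Mxd1 is the only filled point, and the medians lie between -0.084 and 0.19.

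The genes whose pattern over the 6 samples was most like that of *Txnip* were *Sfmbt1*, *Wdr82* and *Irf4*, with a Pearson r of log2 CPM of 0.992, 0.992 and 0.991. For *Arrdc4* they were *Vps54*, *Zfp687* and *Tmco4* (0.996, 0.995 and 0.987), and for *Slc2a1* they were *Mtx1*, *Nabp1* and *Ephb6* (0.992, 0.984 and 0.983). These are the highest of 10948 values each over the same 6 libraries, and such values are a description. Among the 9 genes themselves, *Arrdc4* had an r of -0.91 with *Slc2a1*, -0.78 with *Txnip* and 0.72 with *Slc2a3*, which includes the difference between genotypes for which the genes were known.

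The direction of *Txnip*, *Arrdc4*, *Arrdc2*, *Mlx*, *Slc2a1* and *Slc2a3* was the same under each of 14 other settings, among them the 6 fits that leave out 1 sample. The groups of *Txnip*, *Arrdc4*, *Slc2a1* and *Slc2a3* were separate, so leaving out 1 sample could hardly reverse their direction. *Txnip* ranged from 0.48 to 0.60 and *Arrdc4* from -1.26 to -0.84, and both had an unadjusted p under 0.01 in all 14. *Slc2a3* ranged from -0.76 to -0.39, with such a p in 7 of the 14, and *Slc2a1* from 0.29 to 0.44, in 0 of the 14. An FDR of 0.1 was passed by *Txnip* and *Arrdc4* with edgeR's exact test (adjusted p = 0.0924 and 0.0234) and without a low-count filter (0.0439 and 0.0560 by edgeR's quasi-likelihood test). Over all tested genes, 80 of 10949 passed with the exact test and 131 of 19710 without the filter. Across the 14, adjusted p-values of *Txnip* lay between 0.0439 and 0.860 and those of *Arrdc4* between 0.0234 and 0.935.

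**Figure D5:**
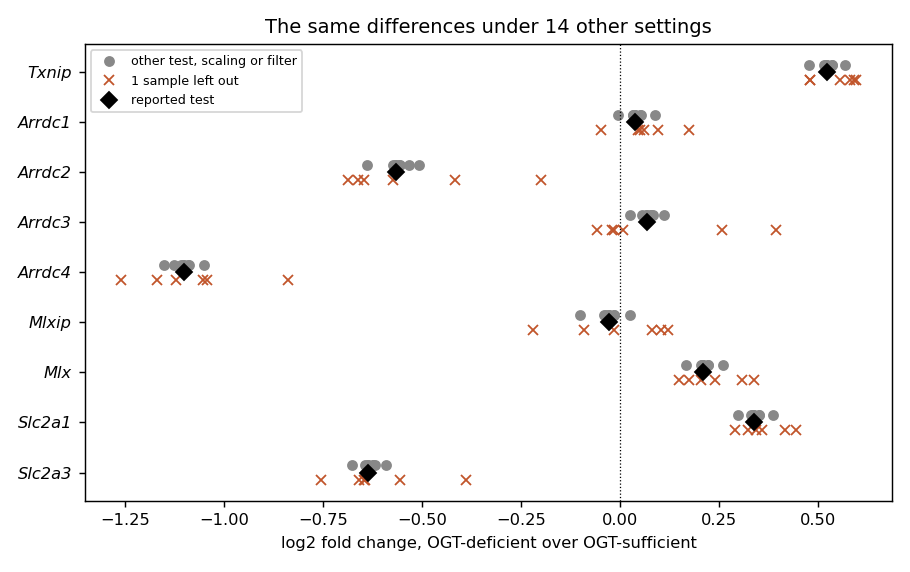
Log2 fold change (horizontal axis, OGT-deficient over OGT-sufficient) of each gene in the reported test (black), under other tests, scalings, filters or the replicate block (grey), and with 1 sample left out (orange crosses). Txnip stays between 0.48 and 0.60 and Arrdc4 between -1.26 and -0.84, while Arrdc1, Arrdc3 and Mlxip cross 0.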

How the data were processed

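The authors trimmed paired-end reads with Trimmomatic (0.33), checked them with FastQC and aligned them with bowtie2 (2.2.4.0). The paper names Cuffquant for quantification, whereas the submitters' processing notes name featureCounts, edgeR and the build mm10. The annotation, strand setting and handling of shared reads are not given in the sources used here. They deposited whole numbers per gene symbol and sample, taken here as raw counts. Columns with the authors' own comparison (p-values, FDR and fold changes) and group means were not used.

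The deposited counts were tested with edgeR 4.0.16 under R 4.3.3 (TMM scaling, quasi-likelihood test, filterByExpr at a minimum count of 10) and Benjamini-Hochberg adjustment over 10949 genes, with DESeq2 1.42.0 as an alternative. Standard errors were derived from the F statistic. Exon lengths, coordinates and overlaps came from GENCODE M21 (GRCm38, the assembly of mm10) by symbol, where all 9 genes matched, and promoters from RefSeq GRCm38.p6. Single values per sample were compared by exact permutation tests in scipy 1.17.1.

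The genes and lists were chosen with earlier results of these data known. Named are the 9 genes, *Ogt*, overlapping genes, *Foxp3* with any marker at 0, list genes with an unadjusted p under 0.01 or the 2 lowest p of a list, and for *Txnip*, *Arrdc4* and *Slc2a1* the 3 most correlated genes. *Mlxipl* and *Nfkb2* were named besides, after their values were seen. Replicates of a genotype differed beyond sampling noise (chi-square over its degrees of freedom 3.31 to 22.0 for each pair). The depth limits precision, since 3 counts correspond to 0.759 to 0.808 CPM.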

Additional observations from a re-analysis of the deposited data

How the results depend on the processing

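The number of genes at an FDR of 0.1 was 3 as reported, 38 with DESeq2, 80 with edgeR's exact test, 131 without a low-count filter and 0 with the replicate block (where 679 had an unadjusted p under 0.05). With 1 sample left out it was from 0 to 9, reaching 9 without OGT-sufficient replicate 3 and 0 without OGT-deficient replicate 2 (462 with an unadjusted p under 0.05) and without OGT-deficient replicate 3 (742). At an unadjusted p under 0.01 there were 202 genes, 431 without a filter, and from 108 to 207 with 1 sample left out, the fewest without OGT-deficient replicate 2. Of the 9 genes, 0 passed an FDR of 0.1, but 2 did with the exact test and 2 without a filter. Of the 58 tested genes of the related lists, 1 had an unadjusted p under 0.01, against 2 with DESeq2, 2 with the exact test, 0 with library size only, 4 without a filter (2 of them at an FDR of 0.1), 2 with the replicate block and from 0 to 3 with 1 sample left out. These fits tested between 55 and 74 list genes, and 0 of the genes so counted lay outside the 58.

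The sign changed for *Arrdc1* with library size only (-0.0056), and from -0.047 to 0.18 with 1 sample left out. *Arrdc3* ranged from -0.059 to 0.39 and *Mlxip* from -0.22 to 0.12 with 1 sample left out, and *Mlxip* was 0.026 without a filter. The difference in summed *Slc2a1* and *Slc2a3* ranged from -1.25 to 0.17 CPM per kb with 1 sample left out. The causes were not tested. Under the replicate block *Txnip* and *Arrdc4* kept an unadjusted p under 0.01 by edgeR's quasi-likelihood test. Same-numbered samples showed no positive shared deviation of any size, with correlations of -0.28, 0.0073 and -0.12. Such correlations over all genes cannot decide whether the replicate numbers mark a pairing. Scaling by library size without *Rn45s*, chosen after seeing the data, changed no call among the 9 genes. Counts limit *Arrdc2* and *Arrdc4* most, with 18 to 63 counts per sample.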

Other observations

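The paired E-box-like elements found in the *Txnip* promoter were present in the promoters of 15 genes, of which 8 were tested here. This set was chosen by sequence, after the *Txnip* match was seen. Its log2 fold changes ranged from -0.42 to 0.52, with a median of 0.052, and *Txnip* was the highest of the 8. *Nfkb2*, which encodes an NF-kB subunit, was the lowest, with 360, 341 and 336 counts in the OGT-sufficient and 226, 291 and 287 in the OGT-deficient samples (log2 fold change -0.42, SE 0.13, unadjusted p = 0.0113 and adjusted p = 0.551 by edgeR's quasi-likelihood test). The other 6 tested genes lay between -0.11 and 0.16.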
